A study of Mus musculus with 3 samples.

Results

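Col13a1-negative fibroblasts of the irradiated mouse lung were examined in single-cell RNA sequencing libraries. A cell was a member if at least 2 of the 5 fibroblast genes Pdgfra, Col1a1, Col1a2, Col3a1 and Dcn were above 0, if Ptprc, Pecam1, Epcam, Msln and Myh11 were all at 0, and if Col13a1 was at 0. The members were thus chosen by measured values of these 11 genes, which are given as a description with no test. The libraries labelled CONV, CONV AsiDNA and FLASH held 28, 45 and 56 members, together 129 of 19622 cells. The 226 cells that passed the same rule with Col13a1 above 0 (35, 70 and 121) served as the comparison within each library.

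Adventitial fibroblasts lie in the loose sheath around the large vessels and airways of the lung, and their known markers include Pi16, a secreted peptidase inhibitor, Col14a1, a fibril-associated collagen, and Dpt (dermatopontin), a matrix protein. Alveolar fibroblasts line the gas-exchange region and are known for Col13a1, Npnt, Inmt and Tcf21. Peribronchial fibroblasts, which sit along the airways next to smooth muscle, are known for Hhip and Aspn, and all these populations build matrix.

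Each library came from the lung of 1 female C57BL6/J mouse, wild type by its label, 5 months after 13 Gy to the thorax. CONV stands for irradiation at a conventional dose rate and FLASH for the same nominal dose at an ultra-high dose rate. The paper lists the given thorax dose of each mode as a range, and the range for FLASH lay lower but overlapped that for CONV. The CONV AsiDNA mouse also received AsiDNA, a cholesterol-coupled oligonucleotide that mimics a DNA double-strand break, at 100 mg/kg on each of 2 days and at 200 mg/kg on the third day, when it was irradiated at the conventional rate. Non-irradiated lungs were not analysed here, so no value below is set against an unirradiated level. With 1 mouse per condition, a difference between libraries cannot be told apart from a difference between mice, and no p-value is given for it.

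Deposited values were natural logs, ln(1 + n) with n whole, and n is called here the adjusted count, since its totals per cell lay in a narrow range, from 1432 to 8462 over all cells of the 3 libraries. Median totals of members were 4280.5 (CONV), 4080 (CONV AsiDNA) and 3919 (FLASH) adjusted counts, with 1927, 1800 and 1632 genes above 0, and the Col13a1-positive cells had 4333, 4158.5 and 4041. Levels are given as adjusted CPM, the sum of a gene over the members of a library scaled by the summed adjusted counts of those members. Values listed in threes follow the order CONV, CONV AsiDNA, FLASH. Pairs of libraries shared 16, 9 and 17 cell barcodes, none of which was a member. Some genes were listed at or near 0 through whole sets of cells: Gm42418 was at 15565 adjusted CPM in CONV AsiDNA members and at 0 in all 56 FLASH members, and mitochondrial genes made up a median of 0.0723%, 0.110% and 0.124% of a member's counts. For this reason a gene at 0 is described as listed at 0.

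As a share of all cells, members came to 0.439% (exact Clopper-Pearson 95% interval 0.292 to 0.634), 0.644% (0.470 to 0.861) and 0.894% (0.676 to 1.16). Among the fibroblasts that passed the rule but for Col13a1, they made up 44.4% (31.9 to 57.5), 39.1% (30.2 to 48.7) and 31.6% (24.9 to 39.0). The order of the libraries was thus opposite for the 2 denominators, the CONV and FLASH intervals of the first did not overlap, and those of the second did. These intervals cover the sampling of cells alone and not the spread between mice or dissociations. Most members had 4 or 5 of the 5 fibroblast genes above 0: 27 of 28, 41 of 45 and 41 of 56. Just inside the threshold, with 2 genes, lay 0, 3 and 4 members, and just outside, with 1 gene, lay 1, 2 and 3 cells. Col13a1 itself was sparse, with a median of 2, 2 and 3 adjusted counts in the positive cells and a value of 1 in 10, 29 and 23 of them, so a value of 0 can also come from low sampling.

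The share of members with Pi16, Col14a1 or Dpt above 0 was 24 of 28 (85.7%, 67.3 to 96.0), 43 of 45 (95.6%, 84.9 to 99.5) and 50 of 56 (89.3%). The same share in the Col13a1-positive cells was 31 of 35 (88.6%), 65 of 70 (92.9%) and 112 of 121 (92.6%). With every cell thinned to 1000 adjusted counts the shares were 53.6%, 77.8% and 71.4% in members and 51.4%, 70.0% and 64.5% in positive cells. The share therefore did not set the members apart, and Dpt carried it: Dpt was above 0 in 20, 41 and 46 members and in 30, 63 and 108 positive cells. None of 1109, 1536 and 1134 cells with both Cd79a and Cd79b, which are B cell genes, had any of the 3 markers, which allows shares of up to 0.332%, 0.240% and 0.325%. These limits are on cells listed with a value above 0 and not on cells that express a marker, and the cells were shallower, with medians of 2857, 2970 and 3061.5 adjusted counts.

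Pi16 and Col14a1 did separate the 2 sets. Pi16 was above 0 in 9 of 28 (32.1%), 21 of 45 (46.7%) and 17 of 56 (30.4%) members, against 2 of 35 (5.71%), 11 of 70 and 3 of 121 (2.48%) positive cells. Its level was 251, 547 and 383 adjusted CPM in members and 13.1, 168 and 15.9 in positive cells, a mean difference of 3.02 ± 0.36 (limma SE, n = 3 libraries) on the log2(adjusted CPM + 10) scale with an adjusted p of 0.00014 by limma. Col14a1 was at 588, 715 and 708 adjusted CPM against 164, 240 and 91.5, a difference of 2.04 ± 0.25 with an adjusted p of 0.00017. Dpt was at 792, 1685 and 1844 against 1039, 1584 and 1321, a difference of 0.06 ± 0.20 that did not pass the test (limma adjusted p = 0.90). Of the members with Pi16, 8 of 9, 19 of 21 and 17 of 17 had at least 11 of the 22 adventitial list genes, against 2 of 19, 4 of 24 and 6 of 39 of the members without it. At least 2 of the 6 peribronchial list genes were above 0 in 4 of 9, 10 of 21 and 7 of 17 of the members with Pi16 and in 7 of 19, 7 of 24 and 19 of 39 of those without it. Ly6a, the stem cell antigen Sca-1, was above 0 in 6 of 9, 17 of 21 and 7 of 17 members with Pi16 and in 0 of 19, 3 of 24 and 4 of 39 members without it.

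**Figure D1:**
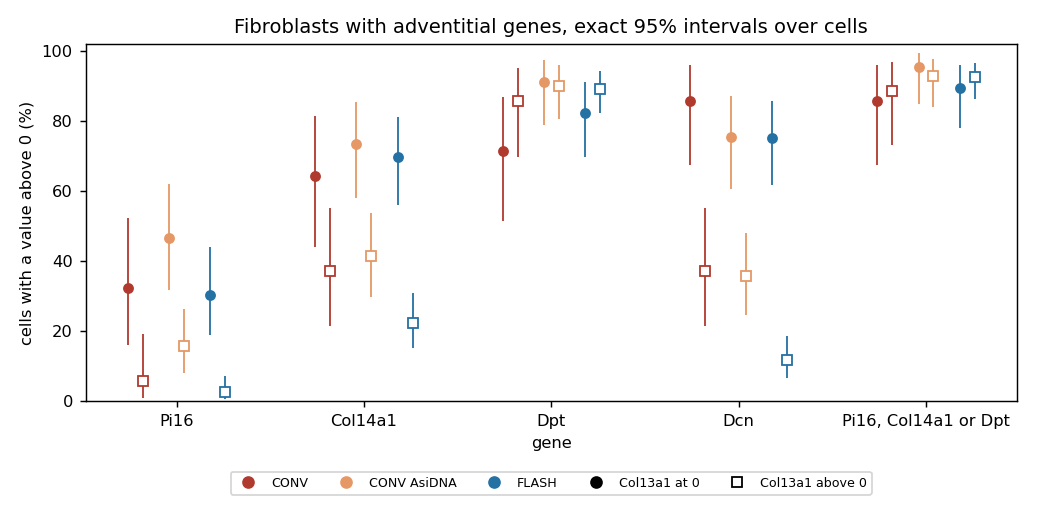
Share of fibroblasts (%) with a value above 0 for Pi16, Col14a1, Dpt, Dcn and any of the first 3, in members (filled circles) and Col13a1-positive cells (open squares) of each library, with exact 95% intervals over cells. The share for any of the 3 markers is alike in both sets, from 85.7% to 95.6%, whereas Pi16 lies between 30.4% and 46.7% in members and between 2.48% and 15.7% in positive cells.

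The members were a mixture. At least 11 of 22 adventitial list genes were above 0 in 10 of 28 CONV members, 23 of 45 CONV AsiDNA members and 23 of 56 FLASH members, compared with 4 of 35, 10 of 70 and 1 of 121 positive cells. By this count, members with an adventitial profile outnumbered the rest in CONV AsiDNA alone, so the cells are called here by the rule and not by the adventitial name. At least 7 of 14 alveolar list genes were above 0 in 7, 17 and 18 members, as they were in 35 of 35, 66 of 70 and 118 of 121 positive cells. At least 3 of 6 peribronchial list genes were above 0 in 5, 7 and 16 members, and in 3, 5 and 2 positive cells. The summed level of that list was 2370, 1988 and 2794 adjusted CPM in members against 605, 550 and 207.

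Endothelial, epithelial and leukocyte list genes were nearly all listed at 0 in the members, which had been chosen with Pecam1, Epcam and Ptprc at 0, while smooth muscle and mesothelial list genes were above 0 in some. All 7 endothelial and all 8 epithelial list genes were at 0 in every member, and 1 leukocyte gene was above 0 in 1 FLASH member. Of the pericyte list, Higd1b and Trpc6 were at 0 in members of all 3 libraries and no member had more than 4 of the 12 genes, while the summed level was 902, 845 and 625 adjusted CPM. Smooth muscle genes summed to 1036, 953 and 2205 adjusted CPM in members, with Cnn1 at 0 in all of them and 4 or more of the 8 genes in 4, 6 and 19 members. Of the mesothelial list, Nkain4 was above 0 in 8, 13 and 11 members, Krt19, Muc16 and Bnc1 were at 0 in all members, and the summed level was 353, 146 and 132 adjusted CPM. Sox9, a cartilage regulator, and Cnmd were above 0 in CONV members, but the cartilage genes Acan, Col2a1 and Chad were at 0 in members of every library.

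**Figure D2:**
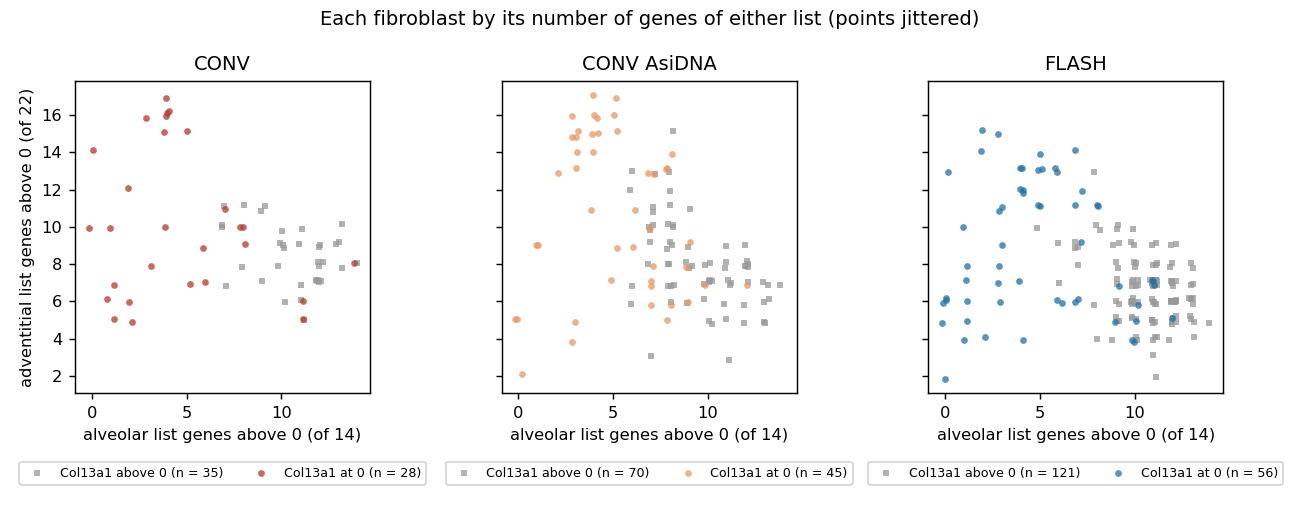
Every fibroblast by the number of its alveolar list genes (x axis, of 14) and adventitial list genes (y axis, of 22) above 0, for members (coloured) and Col13a1-positive cells (grey), jittered. Members spread over both lists, with 10, 23 and 23 of them at 11 or more adventitial genes and 7, 17 and 18 at 7 or more alveolar genes.

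The comparison of members with the Col13a1-positive cells of the same lungs was the only one with more than 1 mouse. Of 7513 genes tested by limma with the library as a block, 269 (3.58%) were higher in members and 332 (4.42%) lower at an adjusted p under 0.05. The libraries were of 3 conditions, so the spread between them holds the treatment as well as the mouse, and the 11 genes of the rule were left out of the fit. Genes that go with Col13a1 were still tested, and their differences follow in part from the split. Without the block, 116 were higher and 165 lower. Without the FLASH library 87 were higher and 107 lower, and without CONV 166 were higher.

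Among the 22 adventitial list genes, 18 were tested, 9 rose, 1 fell and 8 did not pass, with a median log2 difference of 1.22 beside 0.04 over all genes tested. Ccl11, the eosinophil-attracting chemokine eotaxin, was at 416, 596 and 310 adjusted CPM in members and at 19.7, 3.29 and 0 in positive cells, the highest mean difference of all genes named, 4.78 ± 0.33 (limma adjusted p = 3.9e-06). Lum (lumican), a keratan sulphate proteoglycan of collagen fibrils, was at 345, 417 and 488 against 13.1, 46.1 and 0. Serpinf1, which encodes the anti-angiogenic factor PEDF, was at 463, 656 and 653 against 72.3, 125 and 17.9 (3.13 ± 0.35, limma adjusted p = 9.5e-05). Ly6a and Cd248, the stromal cell protein endosialin, rose by 3.06 and 2.88 on the log2 scale. Pcolce2, an enhancer of procollagen processing, went the other way, at 1106, 1804 and 1776 in members against 2445, 2662 and 3410. Cd34, a progenitor marker, did not pass (0.35 ± 0.21, limma adjusted p = 0.39).

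Of the 14 alveolar list genes all were tested, 13 fell and 1 did not pass, with a median of -1.97. The sets had been split by Col13a1, a known marker of alveolar fibroblasts, so this fall was in large part set by the rule. The values and p-values of these genes are therefore a description of the split. Npnt, the integrin ligand nephronectin, was at 282, 423 and 562 adjusted CPM in members and at 3346, 3228 and 4219 in positive cells (-3.10 ± 0.19, limma adjusted p = 1.9e-06). Inmt, a methyltransferase, was at 2017, 2774 and 2465 against 5910, 5725 and 8122, and Tcf21, a mesenchymal transcription factor, was at 165, 265 and 132 against 401, 632 and 670. The level of Npnt lay in a subset, since it was above 0 in 6 of 28, 16 of 45 and 18 of 56 members. Of these, 5, 13 and 14 had at least 7 alveolar list genes, against 2 of 22, 4 of 29 and 4 of 38 of the members without Npnt. Npnt is itself on that list and counts towards the 7, so part of this contrast was set by construction.

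All 4 peribronchial list genes tested rose. Hhip, an inhibitor of hedgehog signalling, was at 1287, 937 and 1402 adjusted CPM against 440, 240 and 51.7, and Aspn (asporin), which binds collagen, was at 251, 444 and 479 against 78.9, 109 and 19.9. Mustn1 rose by 3.31 on the log2 scale. Of 6 smooth muscle list genes tested, Myl9 and Tpm2 rose, and of 5 pericyte list genes tested, Kcnj8 and Abcc9 rose. None of either list fell, and the other genes of both lists did not pass.

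Of 17 elastic fibre genes tested 6 fell, among them Eln (elastin), at 926, 991 and 749 adjusted CPM in members against 3596, 1555 and 1512, and the elastin cross-linking enzyme Lox, at 392, 265 and 251 against 795, 781 and 1036. Fbln1, which encodes fibulin-1, was the 1 member of that list that rose. Of 10 basement membrane genes tested, Col4a2, Lamb1 and Lamc1 fell and none rose. Among 18 proteases and inhibitors, Serpine2 and Pcolce2 fell and 6 rose, including the stromelysin Mmp3, at 1161, 1593 and 1087 against 329, 965 and 294.

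Of 15 genes of the dissociation response list, which tissue digestion is known to induce, 12 rose and none fell. Fos was at 4229, 5250 and 7578 adjusted CPM in members and at 1196, 3917 and 3678 in positive cells. The median mitochondrial share also differed between the sets, at 0.312%, 0.392% and 0.781% in positive cells against 0.0723%, 0.110% and 0.124% in members. The part of either in the other differences was not tested. Of 11 p53 target genes tested 3 rose, beside 3.58% of all genes. Cdkn1a, which encodes the cell cycle inhibitor p21, was at 1099, 634 and 657 against 289, 507 and 290 (1.12 ± 0.26, limma adjusted p = 0.014). Mdm2 and Ccng1 also passed, but Mdm2 was above 0 in 8, 3 and 8 members. Its level in CONV AsiDNA lay largely in 1 member, without which its log2 ratio to FLASH was -0.04 in place of 1.80. In the retinoid and lipid list, Aldh1a2 and Aldh1a3, enzymes of retinoic acid synthesis, rose while Aldh1a1 fell.

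By the size of the difference, the genes higher in members also included Scara5, already counted in the adventitial list, Igfbp5, from the list of IGF and Wnt modulators, and, outside the lists, Crip1, Meg3, Penk, Gadd45g and Has1. Crip1, a small LIM domain protein, had a difference of 4.42 ± 0.39, and Penk, the precursor of enkephalins, one of 3.82 ± 0.39. Has1, a hyaluronan synthase, was higher by 3.20 ± 0.30. Among the genes lower in members, Scube2 and Slc7a10 had differences of -3.26 ± 0.26 and -2.87 ± 0.28. Saa3, an acute-phase protein, was listed at 0 in all members, against 933, 777 and 53.7 adjusted CPM in positive cells.

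**Figure D3:**
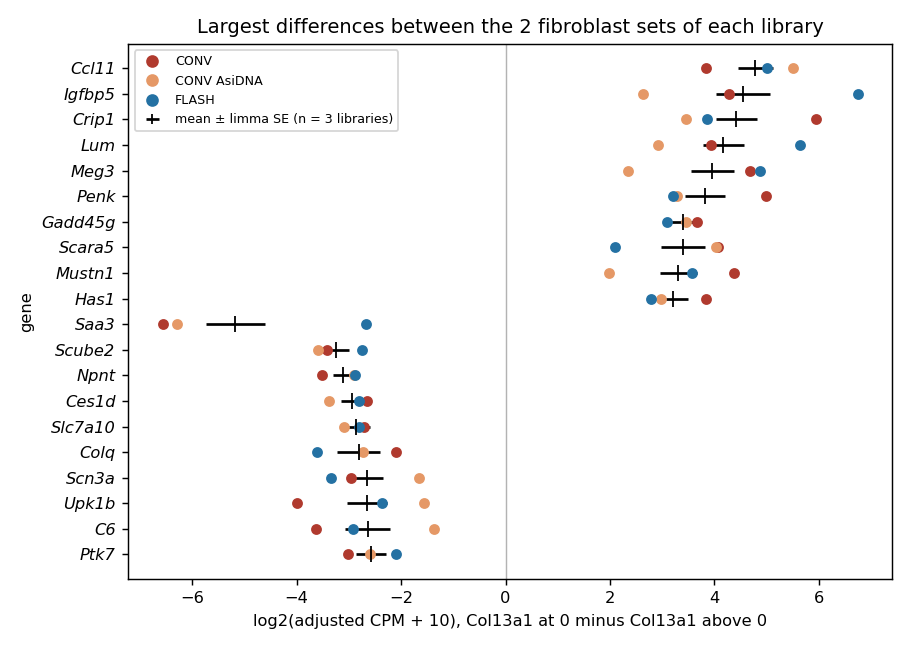
Difference in log2(adjusted CPM + 10), members minus Col13a1-positive cells, for the 10 genes with the largest difference in each direction, with a point per library and a bar for the limma mean ± SE (n = 3 libraries). The genes were chosen to have all 3 libraries on the same side of 0, Ccl11 has the largest mean difference among the higher genes at 4.78, and Saa3 is a gene listed at 0 in the members.

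Between libraries, 4308 genes had a sum of at least 20 over the members. Past 2-fold, CONV was higher than CONV AsiDNA for 299 genes (6.94%) and lower for 369 (8.57%), and higher than FLASH for 294 (6.82%) and lower for 349 (8.10%). CONV AsiDNA was higher than FLASH for 187 (4.34%) and lower for 154 (3.57%). CONV, the library with the fewest members, stood in the pairs with the more numerous differences. These comparisons share libraries, so each is given with its own values.

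Single members decided several of the larger ones. The 3 members above 6000 adjusted counts were all in CONV, at 7754, 6679 and 6199. The first had 173 of the 177 adjusted counts of Inhba in CONV, 52 of the 59 of Tnc, and 312 of the 337 of Timp1. It also had the highest Fn1 (163), Col5a3 (41) and Ccl2 (46). Inhba encodes a subunit of activin A, Tnc the matrix protein tenascin-C of repair, Timp1 an inhibitor of metalloproteinases, Fn1 fibronectin and Ccl2 a monocyte-attracting chemokine. The cell had none of the leukocyte, endothelial, epithelial or mesothelial list genes and 3 of the 8 smooth muscle list genes.

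Inhba was at 1389, 37.9 and 18.3 adjusted CPM, and above 0 in 5, 6 and 3 members. Without its highest member the log2 ratio of CONV to CONV AsiDNA went from 4.87 to -0.14 and that to FLASH from 5.63 to 0.62. Timp1 went from 2.71 to -0.89 and from 2.88 to -0.72 in the same pairs, so its direction turned. Tnc went from 4.50 to 1.72 over CONV AsiDNA and from 3.49 to 0.71 over FLASH. Fn1 held its direction: it was at 3374, 542 and 530 adjusted CPM and above 0 in 19, 21 and 24 members. Its log2 ratios of 2.62 and 2.65 became 1.21 and 1.24 without the 3 members above 6000. Its level in CONV still lay in few members. The 3 highest values there were 163, 103 and 49, and the last was in a member at 5375 adjusted counts, which that setting kept. The ratio without this member as well was not computed. Ltbp2, a latent TGF-beta binding protein, was at 220, 27.1 and 54.8, and its log2 ratios of 2.63 and 1.83 became 1.93 and 1.12 without the 3 members above 6000.

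**Figure D4:**
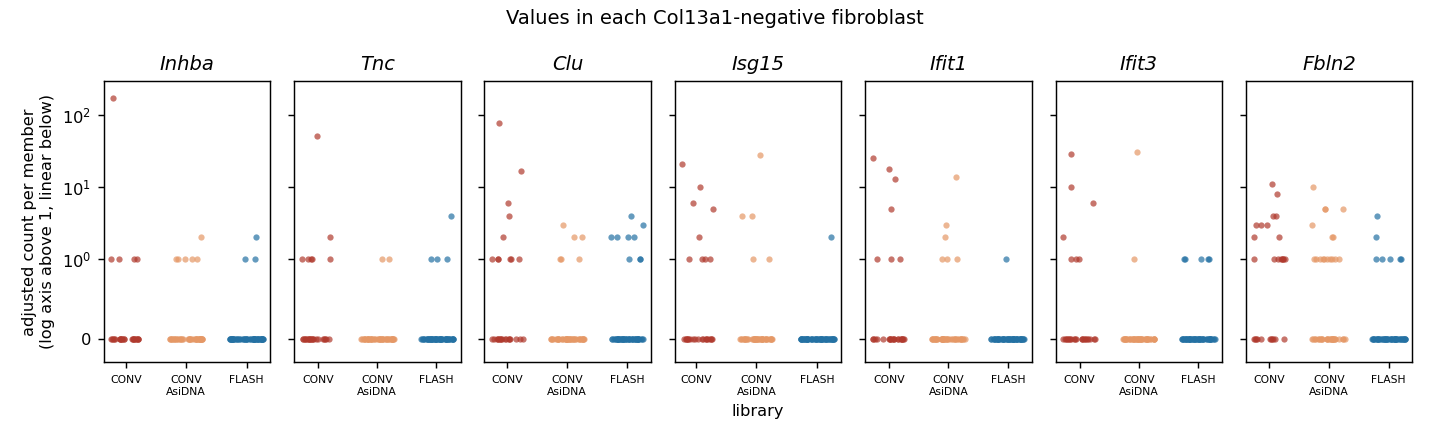
Adjusted count of 7 genes in each member, by library, on an axis that is linear below 1 and logarithmic above. For Inhba and Tnc, 1 CONV member lies at 173 and 52 while every other member lies at 4 or below, and for Fbln2 the CONV and CONV AsiDNA values are spread over 17 members each.

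Clu (clusterin), a secreted chaperone, and Trf (transferrin), an iron carrier, were higher in CONV: Clu was at 895, 54.2 and 82.2 adjusted CPM and Trf at 518, 16.3 and 32.0. Clu had 79 of its 114 adjusted counts in CONV in 1 member, and Trf had 44 of 66 in another. These 2 cells had 4 and 3 of the 9 mesothelial list genes above 0, with Msln at 0 by the rule. Each had 1 of 6 genes taken as signs of a doublet. That gene was Upk3b, itself one of the mesothelial list genes just counted, and both cells had 0 leukocyte, endothelial and epithelial list genes. Without members with any of those 6 genes, the log2 ratio of CONV to FLASH for Clu was 0.80 in place of 3.29, under 2-fold, and Trf had too few counts for a value. With only the highest member of each gene left out, Clu was at 2.21 over CONV AsiDNA and 1.69 over FLASH. Trf was then at 2.87 and 2.20.

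Interferon-induced genes differed as well. Isg15, a ubiquitin-like modifier, was at 377, 206 and 9.13 adjusted CPM, above 0 in 9 of 28, 5 of 45 and 1 of 56 members. Ifit1, which binds viral RNA, was at 502, 119 and 4.57, above 0 in 7, 6 and 1 members. Ifit3, its partner, was at 392, 173 and 22.8, above 0 in 7, 2 and 5 members. FLASH was lowest for all 3, and the CONV members with them overlapped, since 6 of the 7 Ifit1 members in CONV also had Isg15. Without the 3 members above 6000, the log2 ratios of CONV to FLASH were 3.73 for Isg15, 4.65 for Ifit1 and 2.65 for Ifit3. Those of CONV to CONV AsiDNA went from 0.84 to 0.23 for Isg15, from 1.99 to 1.50 for Ifit1 and from 1.13 to 0.17 for Ifit3, where Ifit1 alone was then past 2-fold. In CONV AsiDNA, 1 member had 28 of the 38 adjusted counts of Isg15 and 14 of the 22 of Ifit1. Without it the ratio of CONV AsiDNA to FLASH went from 3.50 to 1.78 for Isg15 and from 3.15 to 1.90 for Ifit1. For Ifit3, 31 of the 32 adjusted counts in CONV AsiDNA were in the same member, and without it the ratio of CONV AsiDNA to FLASH was -1.08 in place of 2.48. The differences were not seen in the Col13a1-positive cells in the same form, where Isg15 was at 32.9, 69.2 and 15.9 adjusted CPM and Ifit1 at 6.57, 52.7 and 23.9.

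A list of 22 interferon-induced genes was then drawn up, after these values had been seen, and is a description only. At least 3 of them were above 0 in 14 of 28 CONV members (50.0%, 30.6 to 69.4), 14 of 45 CONV AsiDNA members (31.1%, 18.2 to 46.6) and 12 of 56 FLASH members (21.4%, 11.6 to 34.4), and the intervals overlap. Their summed level was 3860, 1338 and 653 adjusted CPM, and that of CONV was 2303 without the 3 members above 6000. Of 14 list genes tested, 12 were higher in CONV than in FLASH past 2-fold, beside 6.82% of all genes, and 1, Ifi27, was lower, but the list was drawn up from these values and its count supports nothing. In the Col13a1-positive cells the summed levels were 447, 1456 and 619, so there the highest library was CONV AsiDNA.

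The upstream sequences of these genes are shown because interferon acts through a known element, the letters GAAA, any 2 bases and GAAA again. They were taken from RefSeq (GRCm38.p6) on the strand of the gene, and capitals mark every match to these letters on either strand, where matches that overlap run together. In the 250 bases before the start of transcription the letters occur in 2.98% of 32851 windows of the same length. The match is a description of letters and not of binding. The stretch of Isg15 lies at chr4:156200845-156200926 (minus strand), that of Ifit1 at chr19:34640755-34640843 (plus) and that of Ifit3 at chr19:34583343-34583446 (plus), and they hold 3, 2 and 2 matches.
Isg15: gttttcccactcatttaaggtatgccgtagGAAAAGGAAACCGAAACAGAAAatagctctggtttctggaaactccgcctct
Ifit1: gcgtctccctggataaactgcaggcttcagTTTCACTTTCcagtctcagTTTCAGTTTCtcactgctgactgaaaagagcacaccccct
Ifit3: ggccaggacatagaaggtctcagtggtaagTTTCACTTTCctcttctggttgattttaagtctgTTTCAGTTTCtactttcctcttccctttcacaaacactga

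Some differences rested on many members. Fbln2 (fibulin-2), a matrix glycoprotein of vessel sheaths, was at 377, 228 and 50.2 adjusted CPM and above 0 in 17 of 28, 17 of 45 and 7 of 56 members. Its log2 ratio was 2.68 for CONV over FLASH and 1.98 for CONV AsiDNA over FLASH, and without the highest member 2.37 and 1.64. The Col13a1-positive cells gave 0.88 and 1.35 for Fbln2 in the same pairs. Tspan11, a tetraspanin, was at 15.7, 135 and 9.13, above 0 in 1, 13 and 2 members, and so was high in CONV AsiDNA alone. Rbp4, the retinol carrier, was at 70.6, 428 and 557, above 0 in 5, 20 and 19 members. Mbd1, a reader of methylated DNA, was at 62.8, 563 and 653, above 0 in 5, 24 and 24 members, and in the Col13a1-positive cells it was also lower in CONV, at 171, 959 and 1104.

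In FLASH, Tagln (transgelin), an actin-binding protein of smooth muscle, was highest, at 322, 314 and 972 adjusted CPM, and above 0 in 6, 14 and 29 members. Of the 6 smooth muscle list genes tested, FLASH was higher than CONV past 2-fold for 4 and lower for none, beside 8.10% of all genes. The rule had taken out cells with Myh11, a smooth muscle myosin, at unequal rates, 48 of 132, 62 of 213 and 43 of 255 cells with at least 2 fibroblast genes, and the part of this in the difference was not tested. Rgs2, a regulator of G protein signalling, was at 173, 206 and 936, with 6, 9 and 18 members above 0. In the Col13a1-positive cells its log2 ratios to FLASH were -1.34 for CONV and -0.94 for CONV AsiDNA. Igfbp5, which binds insulin-like growth factors, was at 565, 379 and 1703, but 263 of its 373 adjusted counts in FLASH were in 1 member. Without that member its log2 ratio of CONV to FLASH was 0.14 in place of -1.57. Igfbp5 went the other way in the Col13a1-positive cells, at 0.90 for CONV over FLASH. Des (desmin), a muscle intermediate filament, was the gene farthest below both other libraries in CONV AsiDNA, at 196, 16.3 and 146 adjusted CPM. Without members with 3 or more smooth muscle list genes its log2 ratio of CONV AsiDNA to FLASH was -0.91 in place of -2.57, but Des is one of the genes that setting counts, so cells with it were removed by construction. Of the other values of named genes between libraries in that setting, 44 kept their direction and stayed past 2-fold, and Ifit3 turned in 1 pair.

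**Figure D5:**
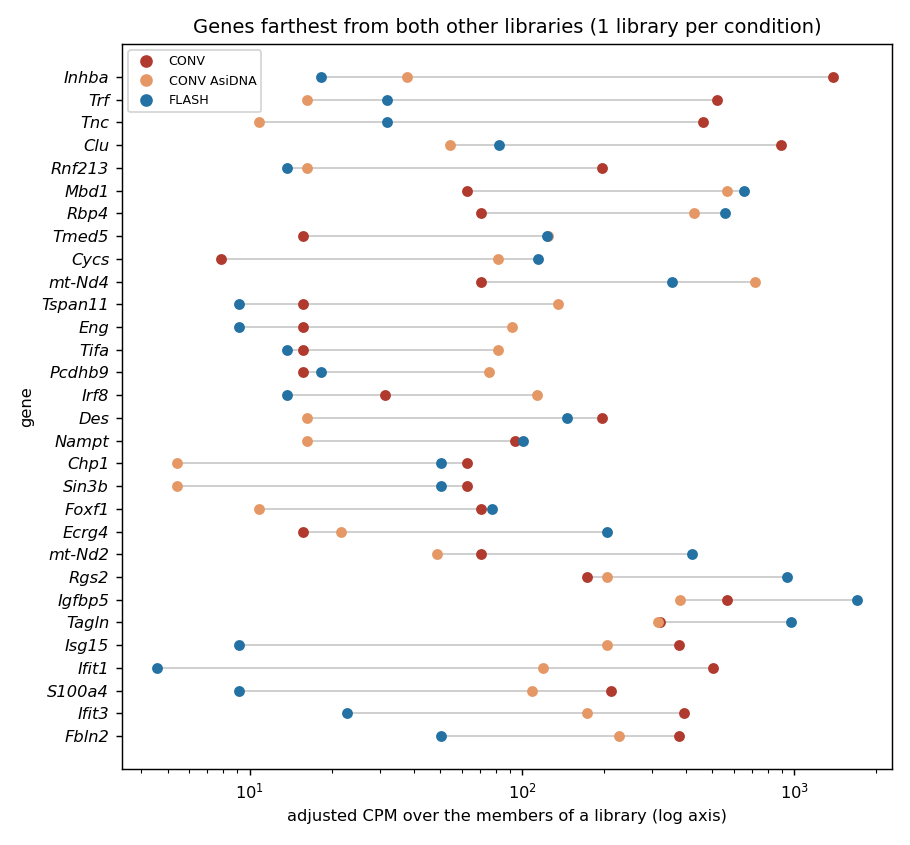
Adjusted CPM over the members of each library (log axis) for the genes farthest above or below both other libraries. Inhba spans from 18.3 in FLASH to 1389 in CONV and Ifit1 from 4.57 in FLASH to 502 in CONV, and with 1 library per condition no error bar can be drawn.

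Adventitial list genes were lower in CONV than in CONV AsiDNA for 16 of 18 tested, with a median log2 ratio of -0.50 beside -0.05 over all genes. Of these, 3 were lower past 2-fold, beside 8.57% of all genes, and 2 without the 3 members above 6000. Of the markers outside that list, Dpt was at 792, 1685 and 1844 adjusted CPM, Pi16 at 251, 547 and 383, and Col14a1 at 588, 715 and 708. Dcn, one of the rule's genes, was instead highest in CONV, at 11111, 8078 and 8825. The median was 0.02 for CONV over FLASH and 0.49 for CONV AsiDNA over FLASH. Il33, an alarmin cytokine, was at 133, 125 and 0 and was listed at 0 in all 56 FLASH members. Of the p53 targets, 4 of 11 were higher in CONV than in FLASH past 2-fold, beside 6.82% of all genes, and 4 of 11 were higher in CONV AsiDNA than in FLASH, beside 4.34%. In both pairs none was lower, and between CONV and CONV AsiDNA only Phlda3 passed 2-fold, with a log2 ratio of 1.06. Without the 3 members above 6000 Phlda3 was at 0.95 in that pair, under 2-fold, and Plk2 was at -2.32. Mdm2, among the 4 genes higher in CONV AsiDNA than in FLASH (log2 ratio 1.80), was above 0 in 3 CONV AsiDNA and 8 FLASH members. Its direction in that pair turned without its highest member. Cdkn1a was above 0 in 21, 25 and 34 members, and its log2 ratio of CONV to CONV AsiDNA was 0.78, under 2-fold. Dissociation response genes were lower in CONV than in CONV AsiDNA for 14 of 15 and lower than in FLASH for 13 of 15, beside 2307 and 2333 of all 4308 genes. The median log2 ratios were -0.31 and -0.71 beside -0.05 and -0.06 over all genes. Past 2-fold, Nr4a1 was lower in CONV than in CONV AsiDNA (-1.59) and Ier3 was higher (2.03). Against FLASH, Ier2 (-1.17) and Nr4a1 (-1.16) were lower in CONV past 2-fold and none was higher. Both came under 2-fold against FLASH, at -0.98 and -0.92, without the 3 members above 6000. The list had summed levels of 22323, 27126 and 34993 adjusted CPM. Without the 3 members above 6000 they were lower for 9 and 12 of 15. The part of this response in the other differences was not tested.

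The genes that the comparisons turn on lie, in GRCm38 with GENCODE M21, at chr10:61838236-61979108 (Col13a1), chr17:29317680-29330593 (Pi16), chr15:55307750-55520803 (Col14a1), chr1:164796644-164824266 (Dpt) and chr10:97479609-97518143 (Dcn), and all are annotated as protein coding.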

How the data were processed

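Lungs were dissociated with dispase and elastase and sequenced as 10x Genomics libraries, and per the labels the reads were processed with Cell Ranger 6.0.0 against mm10. The authors deposited 1 table per library with natural log values, ln(1 + a whole number), for 22954 genes. Each value gave back a whole number within 1e-06. The sources used here do not state how the authors adjusted the counts, so no count model was used, and 4 further tables, with 12 columns of per-sample values that match none of the samples, were not used here.

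Members were found by the rule in the results. Shares carry exact Clopper-Pearson 95% intervals. Values were summed over the members of a library and scaled by their total (adjusted CPM). Between libraries the log2 ratio of adjusted CPM plus 10 was taken for genes with a sum of at least 20 over the members, and 2-fold was the threshold. Members and Col13a1-positive cells were compared with limma 3.58.1 (R 4.3.3, eBayes with trend, library as a block, Benjamini-Hochberg over all genes tested). Pairing comes from the mouse, since both sums of a library are from the same lung. The scripts were tested on simulated data. No doublet caller was run: cells with a gene of another lineage were left out by the rule, and 6 genes of other lineages served as an alternative. Cells of 1 library share a mouse and are not replicates.

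The members and gene lists were chosen with earlier results of these data known. The genes named were drawn from the rule genes and markers, members of the lists, the 5 genes per library farthest above and below both others among genes above 0 in every library, and the 10 genes with the largest limma differences in each direction that had an adjusted p under 0.05 and the same sign in 3 libraries. The plots show all genes of the last 2 sets, and the text describes some of them. Gm42418 and the 22 interferon-induced genes were chosen after their values were seen. One gene of the peribronchial list is counted but not reported here by name.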

Additional observations from a re-analysis of the deposited data

How the results depend on the processing

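With each member thinned to 1000 adjusted counts, the share with Pi16, Col14a1 or Dpt was 53.6%, 77.8% and 71.4% in CONV, CONV AsiDNA and FLASH, and with 2 of the 3 markers asked for it was 57.1%, 73.3% and 66.1%. Without the replicate block the paired comparison gave 116 genes higher and 165 lower in place of 269 and 332. Leaving out 1 library gave 87 to 214 higher and 107 to 250 lower, lowest without FLASH. Without CONV, 166 were higher. With a minimum sum of 50, 1770 genes in place of 4308 were tested. Past 2-fold were 67 higher and 119 lower (CONV over CONV AsiDNA) and 74 and 113 (CONV over FLASH). For CONV AsiDNA over FLASH the counts were 37 and 36. With no minimum, 12656 genes were tested and the counts were 1498 and 1340, 1559 and 1006, and 1051 and 775. No paired analysis was possible between libraries because each condition had 1 mouse. A prior of 1 gave 241 lower for CONV AsiDNA over FLASH.

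Between libraries, the directions below turned. Without the highest member, log2 ratios were -0.14 for Inhba and -0.0013 for Ifit3 (CONV over CONV AsiDNA), 0.28 for Tifa in that pair, -0.17 for Tifa and -1.08 for Ifit3 (CONV AsiDNA over FLASH), and 0.14 for Igfbp5 (CONV over FLASH). Of the list genes past 2-fold, Timp1 (-0.89), Col5a3 (-0.61), Col15a1 (-0.47), Vcan (-0.47) and Mmp19 (-0.47) turned in that way for CONV over CONV AsiDNA, Timp1 (-0.72) and Cxcl1 (-0.26) for CONV over FLASH, and Mdm2 (-0.04) and the interferon-induced Oasl2 (-0.61) for CONV AsiDNA over FLASH. Without members with 3 or more smooth muscle genes, Ifit3 was at -0.12 for CONV over CONV AsiDNA. Dpt, which did not pass the paired test, was at -0.0937 without members with 7 or more alveolar genes and at -0.15 without FLASH. Alternatives that leave out the highest member, members above 6000 adjusted counts, or members with smooth muscle or alveolar genes were chosen after seeing the data. Without the members above 6000, Inhba and Tnc fell under the minimum sum and gave no value. The adjusted p of Colq without FLASH and of C6 without CONV missed the threshold, at log2 differences of -2.41 and -2.14, while 272 other values of named genes in the paired comparison, over all alternatives, kept their direction and their side of the threshold. Between libraries 579 such values kept their direction and stayed past 2-fold, and 13 kept their direction but came under 2-fold. A fold was limited by depth wherever a library had few members above 0.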
